A study of Mus musculus with 12 samples.

Results

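A set of 10 genes of water transport and of the vasopressin-cAMP pathway were followed in mpkCCD cells, a mouse cell line of the cortical collecting duct. All 10 members, chosen by name, were found among the 52015 genes with values: the vasopressin receptor Avpr2, the adenylyl cyclases Adcy3, Adcy6 and Adcy9, and the aquaporins Aqp1, Aqp2, Aqp3, Aqp4, Aqp5 and Aqp11. RNA-seq covered 12 libraries in 4 groups. Scr_300 and Scr_600 cells carried a scramble guide RNA with no target and had 2 libraries each. Nfat5-KO_300 and Nfat5-KO_600 cells had Nfat5, the gene of a transcription factor that responds to hypertonicity, deleted by CRISPR/Cas9 and had 4 libraries each, drawn from the 2 clones N1 and N3. All cells were kept for 5 days at 300 mosmol/kg (isotonic) or at 600 mosmol/kg (hypertonic, made with 100 mM NaCl and 100 mM urea). The labels name no vasopressin agonist, so the pathway was read without a stated hormone stimulus, and the knockout groups stand for 2 clones only.

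In principal cells of the collecting duct, vasopressin binds its V2 receptor on the basolateral membrane, the stimulatory G protein activates membrane adenylyl cyclases, and cAMP activates protein kinase A. The kinase phosphorylates aquaporin-2, which moves to the apical membrane, and drives Aqp2 transcription through CREB, while water leaves the cell through aquaporin-3 and aquaporin-4. Aquaporin-1 is the constitutive water channel of the proximal tubule and the thin descending limb.

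The deposited values are the authors' mean FPKM (fragments scaled to exon length and library size) of each group, with no value per library. The whole reads behind many of these means were recovered from the library sizes that genes with a single read reveal, which gave 29344029 to 37506799 reads per library. The recovered libraries are called a to d in order of depth. They could not be matched to a clone or replicate number. Reads were recovered for 9 members in all 4 Scr libraries without ambiguity, for Aqp1 with 1 choice described with its values, and in the knockout libraries only for the members with few reads. Differences are log2 ratios of FPKM + 0.1, calls mean at least 2-fold among genes with at least 0.5 FPKM in either group, and only the Scr_600 against Scr_300 comparison has a test (limma on the recovered libraries).

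Nfat5 mRNA itself was 5.61 FPKM in Scr_300, 7.93 in Scr_600, 3.47 in Nfat5-KO_300 and 6.88 in Nfat5-KO_600. The 2 Scr_300 libraries held 3707 and 3289 reads and the 2 Scr_600 libraries 5896 and 4663. A deletion made by CRISPR/Cas9 can leave the transcript in place, so this level does not check the labels. Of 6 genes known as NFAT5 targets, 5 had less than 0.5 of their Scr_600 level in the hypertonic knockout group, among them the aldose reductase gene Akr1b3 at 39.2 against 175 FPKM. The exception was the taurine transporter gene Slc6a6, at 33.0 FPKM in Nfat5-KO_600 against 33.7 in Scr_600.

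The collecting duct label was checked against marker lists. Of 11 principal cell markers, 4 reached 1 FPKM in a group, and the defining genes Aqp2, Aqp4 and Avpr2 did not. Summed over the list, principal cell markers were 59.6 FPKM in Scr_300, 85.7 in Scr_600, 50.02 in Nfat5-KO_300 and 93.6 in Nfat5-KO_600. Most of it was Npnt, at 52.4, 77.4, 32.8 and 53.6 FPKM in that order. The sum joins markers that were lower in the knockout groups (Npnt) and higher (Gata3 and Hsd11b2). Hsd11b2 was 0.383, 0.655, 1.95 and 6.18 FPKM. Kcnj1 was 0, 0.725, 0 and 0.0740 FPKM. None of 5 thick ascending limb, 8 endothelial and red cell or 7 fibroblast markers reached 0.5 FPKM. Of 10 proximal tubule markers, 2 reached 1 FPKM, Aqp1 and the endocytic receptor gene Lrp2 (0.000936, 0.0116, 0.168 and 1.07 FPKM in the order above), while Slc34a1, Slc5a2, Slc5a12 and Hnf4a stayed under 0.1 FPKM in every group. Of 9 intercalated cell markers, 2 reached 1 FPKM (Aqp6 and the carbonic anhydrase gene Car2), and the list summed to 3.69, 12.1, 4.65 and 13.2 FPKM in that order. Car2 was 2.39, 10.3, 3.99 and 8.77 FPKM and passed between the Scr groups (limma log2 difference 2.08, adjusted p = 0.0225), a call that rested on both Scr_600 libraries. Atp6v1b1, a proton pump gene of the same list, was at 0.973, 0.542, 0.438 and 0.149 FPKM and did not pass between the Scr groups (limma log2 difference -0.58, adjusted p = 0.553). Of 7 thin descending limb markers, 4 reached 1 FPKM, and that list summed to 53.9, 340, 36.5 and 30.3 FPKM, most of it Aqp1 in Scr_600. In the same list Cldn1, a tight junction gene, fell from 6.79 to 1.88 FPKM in hypertonic Scr cells (limma adjusted p = 0.0144, while no gene passed without either Scr_600 library) and was 8.06 and 1.08 FPKM in the knockout groups. Fst was 1.69, 0.642, 3.79 and 0.656 FPKM (limma adjusted p = 0.117), and Bst1 was 21.8, 19.2, 24.002 and 25.03 FPKM (adjusted p = 0.787). The part of cell identity in the values of Aqp1 was not tested, and in bulk RNA fewer cells with a transcript and less transcript per cell cannot be told apart.

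The sequences before the transcription start are given for Aqp1, which differed most between the groups, for Aqp2, the hormone-regulated channel, and for Adcy9, the cyclase that was higher in the knockout groups. They are RefSeq sequences of GRCm38.p6, written in the direction of transcription, and stop at or before the start of the annotated gene. Capitals mark a match to a searched motif. Aqp1 is on chr6:55336049-55336298 (+), Aqp2 on chr15:99578806-99579054 (+) and Adcy9 on chr16:4420499-4420748 (-).
Aqp1: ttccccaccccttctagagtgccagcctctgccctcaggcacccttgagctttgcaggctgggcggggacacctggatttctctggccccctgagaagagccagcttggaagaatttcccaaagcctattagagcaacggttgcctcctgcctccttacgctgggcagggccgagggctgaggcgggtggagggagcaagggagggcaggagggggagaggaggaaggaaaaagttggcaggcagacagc
Aqp2: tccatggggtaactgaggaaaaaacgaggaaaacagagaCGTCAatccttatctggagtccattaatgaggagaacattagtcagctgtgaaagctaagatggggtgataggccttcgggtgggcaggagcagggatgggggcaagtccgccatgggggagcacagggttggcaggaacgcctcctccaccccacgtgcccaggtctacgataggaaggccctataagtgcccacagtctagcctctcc
Adcy9: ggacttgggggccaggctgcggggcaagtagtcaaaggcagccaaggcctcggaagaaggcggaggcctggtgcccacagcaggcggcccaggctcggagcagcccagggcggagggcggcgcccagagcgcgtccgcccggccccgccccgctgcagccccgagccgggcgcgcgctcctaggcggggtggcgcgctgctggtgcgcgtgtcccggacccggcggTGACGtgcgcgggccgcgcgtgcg
Searched on both strands were TGGAAA, the core of the tonicity-responsive element bound by NFAT5, the cAMP response element TGACGTCA, and its short form TGACG, which is part of the full element. The windows ran from 250 bases before to 50 bases after each start. Among all 32851 such windows, 21.4% held TGGAAA, 1.79% TGACGTCA and 20.8% TGACG. For 8 of the 10 members 9 windows were searched, and Adcy6 and Aqp4 were not. The full cAMP element was in none of the 9, TGGAAA was in 1 of the 2 windows of Adcy3, and TGACG was in those of Aqp2 (first base 211 before the start, as CGTCA) and Adcy9 (first base 24 before the start). The Aqp1 window, shown without capitals, held none of the 3 motifs. Sequence outside the windows was not searched, so motifs further from a start are not covered.

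Avpr2, the receptor at the head of the pathway, was too low to judge in every comparison. The 2 Scr_300 libraries held 1 and 1 reads and the 2 Scr_600 libraries 1 and 0, the 4 Nfat5-KO_300 libraries held 0 each, and the 4 Nfat5-KO_600 libraries held 3, 3, 2 and 0. All 4 group means lay at or under 0.0193 FPKM. The 0 reads over the 4 Nfat5-KO_300 libraries allow a mean of up to 3 reads in all. Avpr2 shares 2347 of its 2886 exon bases with Arhgap4 on the opposite strand, and whether the counting used strand is not given in the sources used here, so even these reads are uncertain. Of the related receptors, Avpr1a had no read in any group, Avpr1b 0.00212 FPKM in Nfat5-KO_300 only, and the oxytocin receptor gene Oxtr at most 0.0583 FPKM.

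Adcy6, a cyclase that calcium inhibits, was the main adenylyl cyclase transcript in every group. It made up 92.9% of the summed FPKM of the 10 cyclase genes in Scr_300, 95.7% in Scr_600, 90.1% in Nfat5-KO_300 and 93.6% in Nfat5-KO_600. Its level was 16.6 FPKM in Scr_300 (18.1 and 15.0 in the 2 libraries) and 28.9 in Scr_600 (30.8 and 27.1). The log2 difference between the 2 Scr groups was 0.80 (SE 0.15), and limma over 11946 genes gave an adjusted p of 0.0707. In the knockout groups Adcy6 was 16.4 FPKM at 300 and 31.6 FPKM at 600 mosmol/kg, a log2 ratio of 0.95. Against Scr the log2 ratios were -0.02 at 300 and 0.13 at 600 mosmol/kg, so the genotypes differed by less than the 2 Scr libraries of each group did. Rescaling every group to the same sum put the hypertonic ratio of the knockout groups past 2-fold (log2 1.19). Adcy6 shares 605 exon bases with the antisense gene Gm29331.

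Adcy9, a cyclase that forskolin activates weakly, had higher means in both knockout groups and nearly equal means at the 2 osmolalities. The 2 Scr_300 libraries had 0.498 and 0.554 FPKM (93 and 92 reads) and the 2 Scr_600 libraries 0.471 and 0.641 (91 and 117 reads). The knockout means were 1.23 FPKM at 300 and 1.22 FPKM at 600 mosmol/kg, about 802 and 894 reads over the 4 libraries. The log2 ratio to Scr was 1.09 at 300 and 1.01 at 600 mosmol/kg. How these reads fell among the 4 libraries of each knockout group was not recovered from the deposited means, so no replicate check of the difference is given here. With a pseudocount of 1 FPKM both ratios fell under 2-fold (0.55 and 0.51), and without Scr_600 library a the ratio at 600 mosmol/kg was 0.84. Between the Scr groups the limma log2 difference was 0.06 (SE 0.36, adjusted p = 0.942), with overlapping libraries.

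Adcy3, a cyclase best known from olfactory cilia, was just under the filter in 3 groups: 0.420 FPKM in Scr_300, 0.494 in Scr_600 and 0.413 in Nfat5-KO_300, against 0.665 in Nfat5-KO_600. The Scr_300 libraries had 103 and 76 reads and the Scr_600 libraries 131 and 93, so the groups overlapped. It shares 1380 exon bases with Cenpo on the opposite strand. The log2 ratios that could be taken were -0.02 (knockout against Scr, 300), 0.36 (600), 0.19 (Scr_600 against Scr_300) and 0.58 (knockout, 600 against 300). Among the cyclases outside the members only Adcy7 passed 0.1 FPKM, at 0.301, 0.221, 0.114 and 0.179 FPKM in Scr_300, Scr_600, Nfat5-KO_300 and Nfat5-KO_600. The summed FPKM of all 10 cyclases was 17.9, 30.2, 18.2 and 33.8 in the same order.

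**Figure D1:**
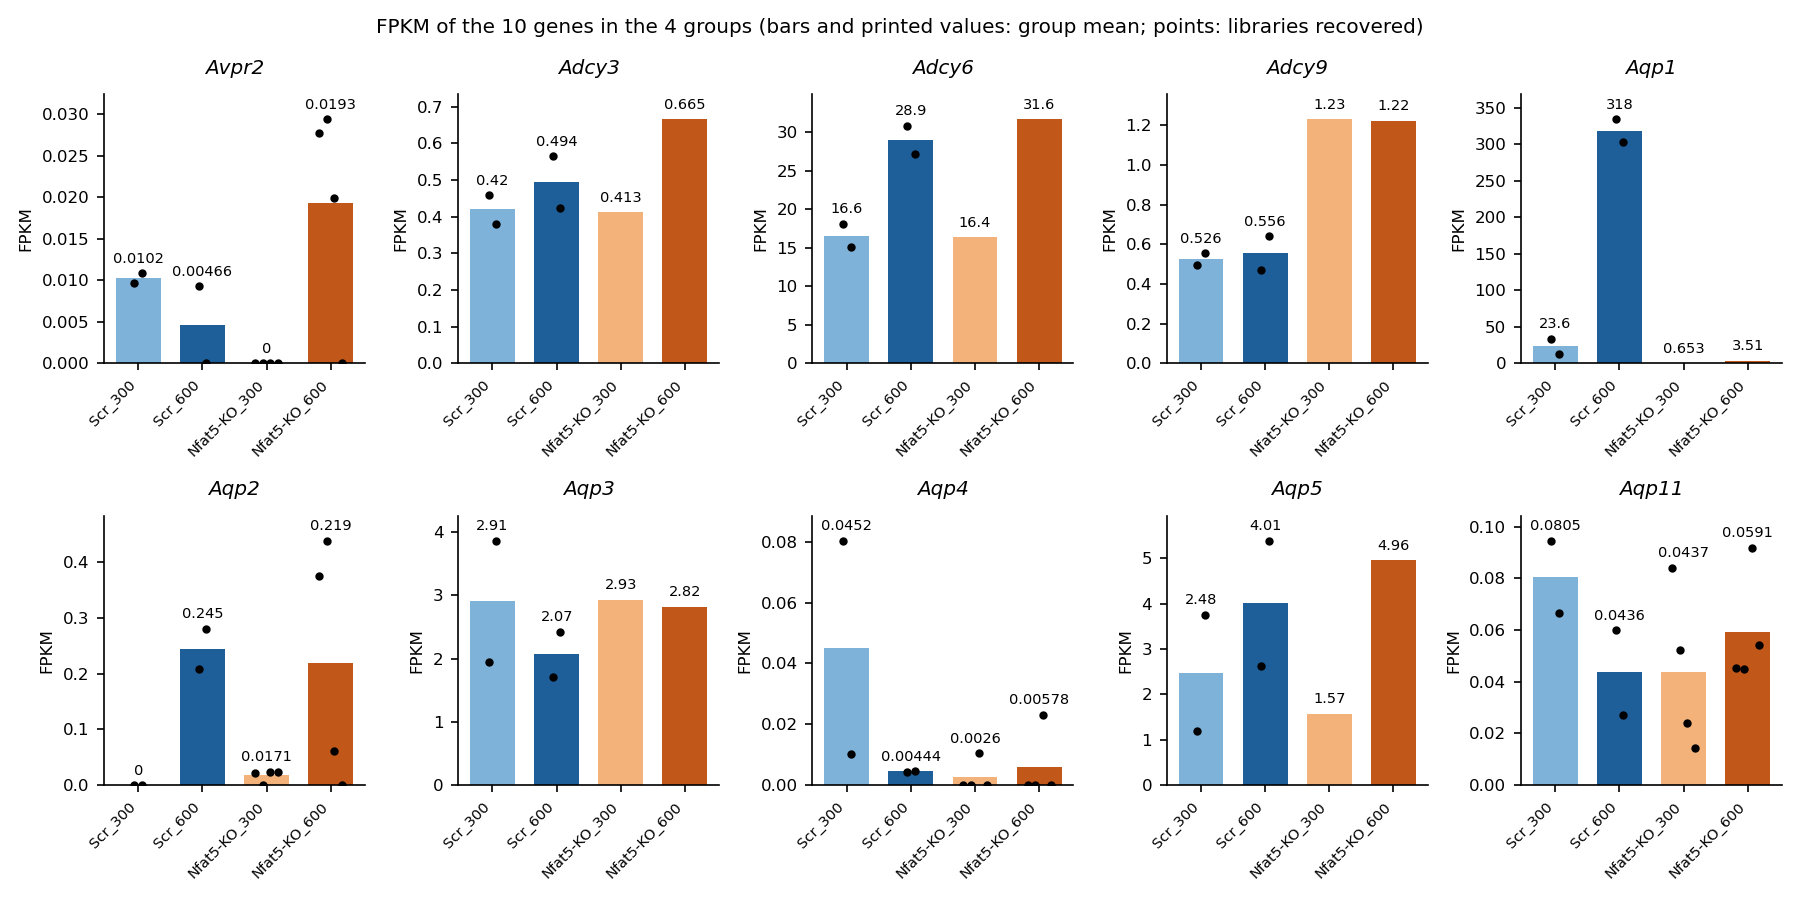
Group mean FPKM of each of the 10 genes as bars on linear axes that start at 0, 1 panel per gene with its own scale, in Scr_300, Scr_600, Nfat5-KO_300 and Nfat5-KO_600, with the mean printed above. Points are single libraries where whole reads were recovered, which shows the Scr_300 libraries of Aqp5 at 1.20 and 3.75 FPKM and those of Aqp1 at 33.9 and 13.4 FPKM.

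Aqp1 was the most abundant aquaporin transcript of the Scr cells and the member that differed most. Its mean was 23.6 FPKM in Scr_300, 318 in Scr_600, 0.653 in Nfat5-KO_300 and 3.51 in Nfat5-KO_600. The 2 Scr_300 libraries had 3199 and 1123 reads (33.9 and 13.4 FPKM), a 2.53-fold spread. For Scr_600, 3 pairs of whole reads gave the deposited mean, and 32576 and 27922 reads (334 and 303 FPKM) is the only pair whose libraries lie within 10-fold of each other. That pair was used, and the other 2 (4268 and 54699, 60884 and 1145) were not tested.

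On these libraries Aqp1 rose with hypertonicity in Scr cells by a log2 difference of 3.89 (SE 0.42, limma adjusted p = 0.0254 over 11946 genes). The rule kept the pair whose 2 libraries were most alike (1.1-fold apart), so the SE and the p-value depend on that choice. The Scr_600 reads of Aqp1 also lay above the 20000 reads up to which the recovery was checked. The call rested on both hypertonic libraries: without either one the adjusted p was 0.127 or 0.140, with log2 differences of 3.82 and 3.96, and no gene at all was called. Of all genes tested, 1.59% were called (0.954% higher and 0.636% lower), with 2658 genes at an unadjusted p under 0.05. Aqp1 was the 1 called of the 5 members that could be tested. With 2 against 2 libraries an exact permutation test cannot go below a two-sided p of 0.333.

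In the knockout groups Aqp1 was 36.2-fold lower than in Scr at 300 mosmol/kg and 90.6-fold lower at 600 mosmol/kg (log2 ratios of -4.98 and -6.46). The first was -4.16 without Scr_300 library a and -5.50 without library b. The 4 Nfat5-KO_300 libraries held about 215 reads in all, as either 25, 90, 24 and 75 or 5, 4, 95 and 103. A single library could have at most 2.61 FPKM even if it held every read, which is under both Scr_300 libraries. In Nfat5-KO_600 the same limit is 14.1 FPKM, under both Scr_600 libraries of the pair used. For 4 against 2 libraries the smallest two-sided exact permutation p is 0.133, and no test was run.

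Hypertonicity was accompanied by higher Aqp1 in the knockout groups as well, 5.38-fold against 13.5-fold in the Scr groups. On the log2 scale these were 2.26 and 3.75, a difference of -1.48, which was not tested. It was -2.25 with a pseudocount of 1 FPKM, -2.30 without Scr_300 library a and -0.96 without Scr_300 library b. Nfat5-KO_600 had less Aqp1 than isotonic Scr cells (3.51 against 23.6 FPKM).

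Aqp2, the channel that vasopressin inserts into the apical membrane, was listed at 0 in Scr_300. No read was found in either Scr_300 library, against 11 and 14 in the Scr_600 libraries. That is at least 7.83-fold higher, with 3 reads over the group as the floor for a count of 0 and the 25 reads taken as counted (their exact 95% interval is 16.2 to 36.9). The Nfat5-KO_300 libraries had 1, 0, 1 and 1 reads and the Nfat5-KO_600 libraries 20, 22, 3 and 0. Hypertonic libraries thus had most of the Aqp2 reads in both genotypes, but in the knockout group 42 of 45 came from 2 libraries.

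In means, Aqp2 was 0.245 FPKM in Scr_600 and 0.219 in Nfat5-KO_600, a depth-scaled ratio of reads of 0.924 with a 95% counting interval of 0.555 to 1.57. Nfat5-KO_600 was 13.4-fold above Nfat5-KO_300 (4.29 to 67.3). These intervals cover counting error only, and the 4 knockout libraries differed by more than that. Aqp2 stayed under the 0.5 FPKM filter everywhere, so it entered no call, and with 0 to 22 reads a library it is too low to judge beyond these counts.

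**Figure D2:**
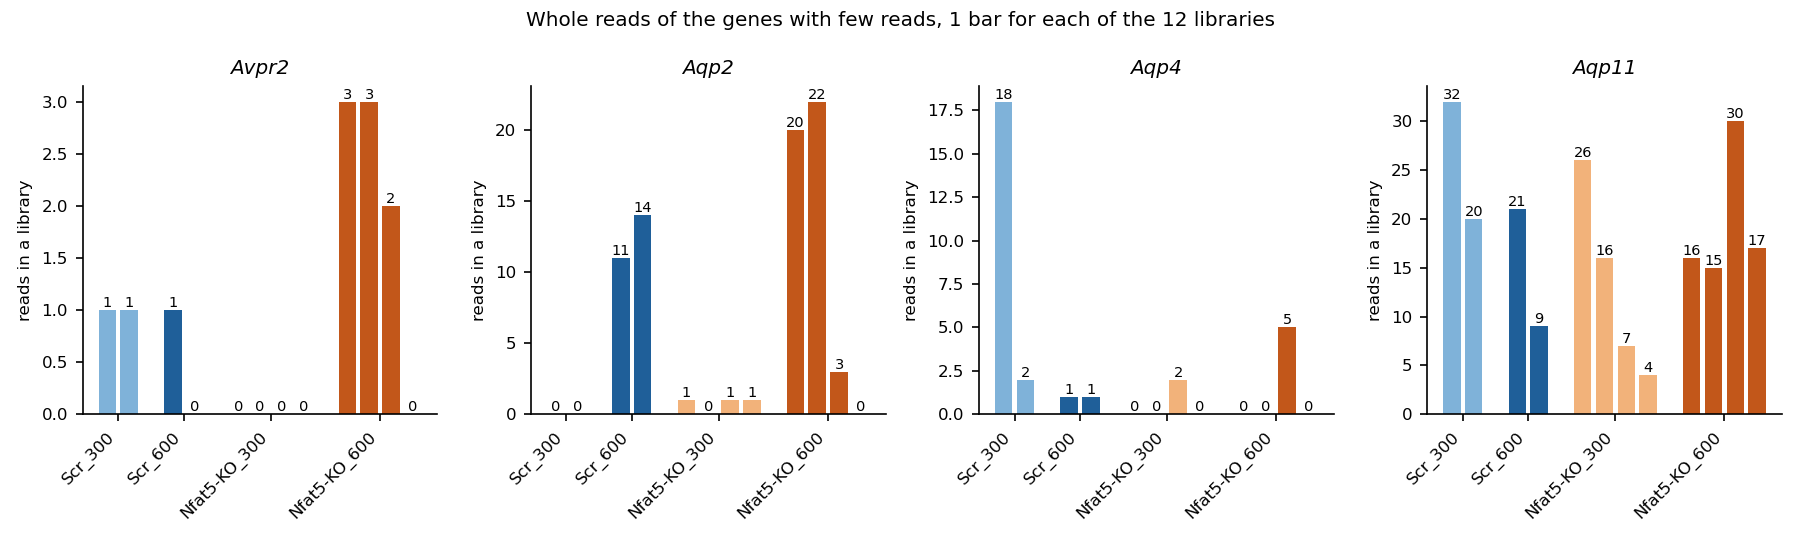
Whole reads of Avpr2, Aqp2, Aqp4 and Aqp11 in each of the 12 libraries, with the number above each bar and 1 panel per gene with its own linear scale. Aqp2 has 11 and 14 reads in Scr_600 and 20, 22, 3 and 0 in Nfat5-KO_600, and at most 1 in any isotonic library.

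Aqp3 and Aqp4 are the basolateral exit channels. Aqp3 was 2.91 FPKM in Scr_300, 2.07 in Scr_600, 2.93 in Nfat5-KO_300 and 2.82 in Nfat5-KO_600, the narrowest range among the aquaporins above 1 FPKM. The Scr_300 libraries had 128 and 226 reads (1.95 and 3.86 FPKM) and the Scr_600 libraries 116 and 156 (1.71 and 2.43 FPKM), so the groups overlapped. The limma log2 difference was -0.41 (SE 0.36, adjusted p = 0.536). It was 0.06 without Scr_300 library b and -0.89 without Scr_300 library a, which turns its direction. The log2 ratios of knockout to Scr were 0.01 at 300 mosmol/kg (-0.39 and 0.57 against single Scr_300 libraries) and 0.43 at 600 mosmol/kg (0.21 and 0.69).

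Aqp4 was too low to judge. The Scr_300 libraries had 18 and 2 reads and the Scr_600 libraries 1 and 1, the Nfat5-KO_300 libraries 0, 0, 2 and 0, and the Nfat5-KO_600 libraries 0, 0, 5 and 0. One Scr_300 library thus held 18 of the 29 reads of all 12 libraries. The Scr_600 to Scr_300 ratio of 0.0940 (95% counting interval 0.0107 to 0.387) rests on that library.

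Aqp5, a channel of glandular and alveolar epithelium, lies next to Aqp2 on chromosome 15 (GRCm38), with Aqp6 after it. Aqp2 spans 99579055 to 99584547, Aqp5 99590782 to 99594829 and Aqp6 99601400 to 99605477, with 6234 and 6570 bases between them. Aqp5 was 2.48 FPKM in Scr_300, 4.01 in Scr_600, 1.57 in Nfat5-KO_300 and 4.96 in Nfat5-KO_600. The Scr_300 libraries had 112 and 312 reads (1.20 and 3.75 FPKM) and the Scr_600 libraries 254 and 492 (2.63 and 5.39 FPKM), so the groups overlapped and each varied at least 2.05-fold. The limma log2 difference was 0.79 (SE 0.58, adjusted p = 0.468). It was 0.01 without Scr_300 library a and 1.57 without Scr_300 library b, so a single library set its size.

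In the knockout groups Aqp5 had a hypertonic log2 ratio of 1.60, one of the 2 members at least 2-fold higher there. Against Scr it was -0.63 at 300 mosmol/kg, but -1.21 without Scr_300 library a and 0.36 without library b. At 600 mosmol/kg it was 0.30, but -0.12 without Scr_600 library a and 0.89 without library b. The hypertonic ratio of the knockout groups exceeded that of the Scr groups by 0.92, which was not tested. The difference was 0.51 and 1.51 without Scr_600 library a and b, and 1.51 and -0.06 without Scr_300 library a and b, so its direction turned without Scr_300 library b.

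Aqp6, an intracellular anion channel of intercalated cells, is no member but is the third gene of this cluster. It was 0.139 FPKM in Scr_300, 1.08 in Scr_600, 0.101 in Nfat5-KO_300 and 3.53 in Nfat5-KO_600. Reads were 13 and 10 in the Scr_300 libraries and 84 and 104 in the Scr_600 libraries (limma log2 difference 2.29, SE 0.40, adjusted p = 0.0664). The Nfat5-KO_300 libraries had 18, 13, 1 and 0 reads. The 3 neighbouring genes thus had higher means in the hypertonic group of both genotypes, and whether this differs from other neighbours was not tested.

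Aqp11, an aquaporin of the endoplasmic reticulum, was under 0.1 FPKM in every group and was too low to judge. The Scr_300 libraries had 32 and 20 reads, the Scr_600 libraries 21 and 9, the Nfat5-KO_300 libraries 26, 16, 7 and 4, and the Nfat5-KO_600 libraries 16, 15, 30 and 17. In FPKM the Scr_300 libraries (0.0946 and 0.0664) lay above the Scr_600 libraries (0.0600 and 0.0272), and the knockout libraries, from 0.0145 to 0.0918, spanned both. The Scr_600 to Scr_300 ratio was 0.542 (95% counting interval 0.334 to 0.866).

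Aquaporin transcripts summed to 29.6 FPKM in Scr_300, 326 in Scr_600, 5.595 in Nfat5-KO_300 and 15.5 in Nfat5-KO_600, over 12 genes. Aqp1 was 79.9% of that sum in Scr_300, 97.6% in Scr_600, 11.7% in Nfat5-KO_300 and 22.7% in Nfat5-KO_600. In Nfat5-KO_300, Aqp3 was 52.4% and Aqp5 28.0%. In Nfat5-KO_600, Aqp5 was 32.0%, Aqp6 22.8% and Aqp3 18.2%. The lens aquaporin Mip stayed between 0.225 and 0.322 FPKM, and Aqp7, Aqp8, Aqp9 and Aqp12 were at or under 0.0339 FPKM.

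**Figure D3:**
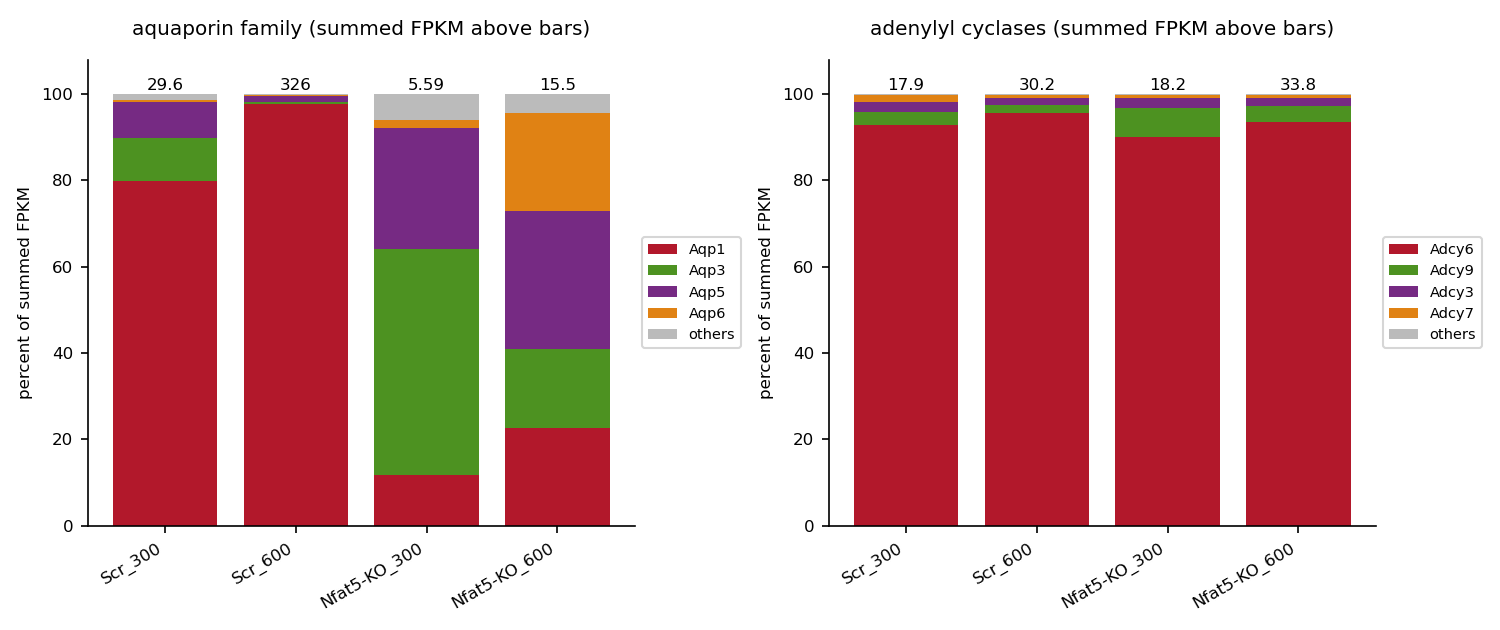
Share of the summed FPKM of the aquaporin family (left, 12 genes) and of the adenylyl cyclases (right, 10 genes) in the 4 groups, as stacked bars on a linear percent axis, with the summed FPKM above each bar. Aqp1 fills 97.6% of the aquaporin bar in Scr_600 and 11.7% in Nfat5-KO_300, whereas Adcy6 fills at least 90.1% of each cyclase bar.

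The members were then set beside all genes past the same filter. At 300 mosmol/kg, 5 members passed and 2 were at least 2-fold different in Nfat5-KO (Aqp1 lower, Adcy9 higher), beside 4.17% of 12704 genes (1.73% higher, 2.44% lower). At 600 mosmol/kg, 6 passed and the same 2 were called, beside 7.44% of 13063 genes (3.76% higher, 3.68% lower). For hypertonicity, 1 of 5 was called in the Scr groups (Aqp1), beside 7.67% of 12929 genes (4.81% higher, 2.86% lower), and 2 of 6 in the knockout groups (Aqp1 and Aqp5), beside 10.4% of 12982 genes (6.25% higher, 4.11% lower). The comparisons share groups and are not independent of each other. Median log2 ratios of the members that passed were -0.02, 0.33, 0.67 and 0.76 in that order, against -0.0015, -0.02, -0.04 and -0.04 over all genes.

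**Figure D4:**
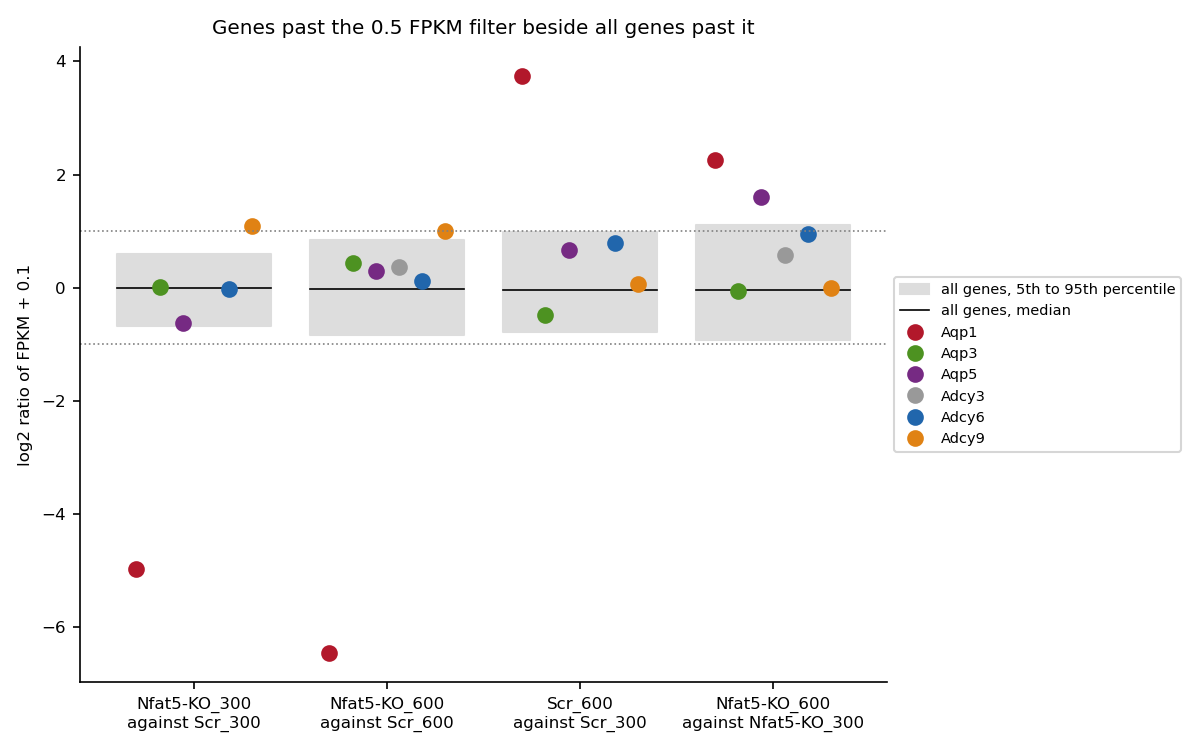
Log2 ratios of FPKM + 0.1 (linear axis) of the members past the filter in the 4 comparisons, with the median of all genes past it as a line, their 5th to 95th percentile as a grey band and 2-fold as dotted lines. Aqp1 lies outside the band in all 4 comparisons (-4.98, -6.46, 3.75 and 2.26), Adcy9 above it in both comparisons of genotype, and Aqp5 above it at 1.60 in the knockout groups.

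For the rest of the pathway, 117 further genes in 9 lists were compared. At least 2-fold different were 2 of 87 in Nfat5-KO_300 against Scr_300 (2.30%, beside 4.17% of all genes), 7 of 90 at 600 mosmol/kg (7.78%, beside 7.44%), 4 of 91 for hypertonicity in the Scr groups (4.40%, beside 7.67%) and 8 of 89 in the knockout groups (8.99%, beside 10.4%). These shares were near or under the background. In the Scr groups limma called 1 of 85 (Prkar2b).

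Prkar2b, a type II regulatory subunit of protein kinase A, rose with hypertonicity in Scr cells from 29.1 and 33.3 FPKM to 83.4 and 90.5 FPKM (log2 difference 1.48, SE 0.13, adjusted p = 0.0167), a call that, like all others, was lost without either Scr_600 library. In the knockout groups it was 23.5 FPKM at 300 and 32.2 FPKM at 600 mosmol/kg, so it was 2.70-fold lower than Scr at 600 mosmol/kg. The other 7 PKA and EPAC genes past the filter were each under 2-fold in the Scr groups. The catalytic subunit gene Prkaca stayed between 55.5 and 65.4 FPKM in all 4 groups, and Prkar1a between 82.5 and 90.2. Rapgef3, the cAMP-activated exchange factor EPAC, was 5.82, 9.36, 7.03 and 11.2 FPKM. The PKA inhibitor gene Pkia was 9.28, 5.39, 8.03 and 3.498 FPKM, at least 2-fold lower in the hypertonic knockout group.

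None of the 7 G protein genes past the filter was 2-fold different in any comparison, with Gnas, the stimulatory alpha subunit, between 6.39 and 8.54 FPKM. Gnai2, Gnai3, Gnb1 and Gnb2 lay between 66.1 and 107 FPKM. Among the genes that shut the receptor off, the arrestin Arrb1 was 0.268, 0.785, 0.218 and 0.886 FPKM and the kinase Grk5 1.06, 1.83, 1.20 and 2.69 FPKM in Scr_300, Scr_600, Nfat5-KO_300 and Nfat5-KO_600. Of the cAMP phosphodiesterases, Pde4c was 0.448, 1.09, 0.380 and 2.66 FPKM, Pde8b was lower in Nfat5-KO_600 than in Scr_600 (0.140 against 0.501 FPKM) and Pde4b lower than in Nfat5-KO_300 (0.312 against 0.728 FPKM). The anchoring protein gene Akap7 was 4.65, 2.57, 3.40 and 1.52 FPKM.

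None of the 8 genes of the CREB family and its coactivators reached 2-fold on the log2(FPKM + 0.1) scale in the 4 comparisons, with Creb1 between 4.55 and 5.36 FPKM. The coactivator gene Crebbp came nearest, at 4.98 FPKM in Nfat5-KO_600 against 2.45 in Scr_600. That is a log2 ratio of 0.99, and 2.03-fold without the pseudocount. Of 18 transcription factor genes linked to Aqp2, Gata2 was 3.31, 4.61, 7.46 and 13.3 FPKM and Gata3 3.41, 4.33, 11.8 and 30.04 FPKM. The 2 Scr_600 libraries of Gata3 had 1.77 and 6.88 FPKM, a wide spread. The Nfat5-KO_600 mean lay above both, but the values of its single libraries are not given here. Of 27 Aqp2 trafficking genes only Anxa2 differed by 2-fold, at 126 and 51.9 FPKM in the Scr groups and 115 and 56.5 in the knockout groups. Of the immediate cAMP target genes, Nr4a1 was 2.41, 1.98, 4.03 and 4.34 FPKM and Dusp1 8.60, 11.8, 4.82 and 3.05 FPKM.

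**Figure D5:**
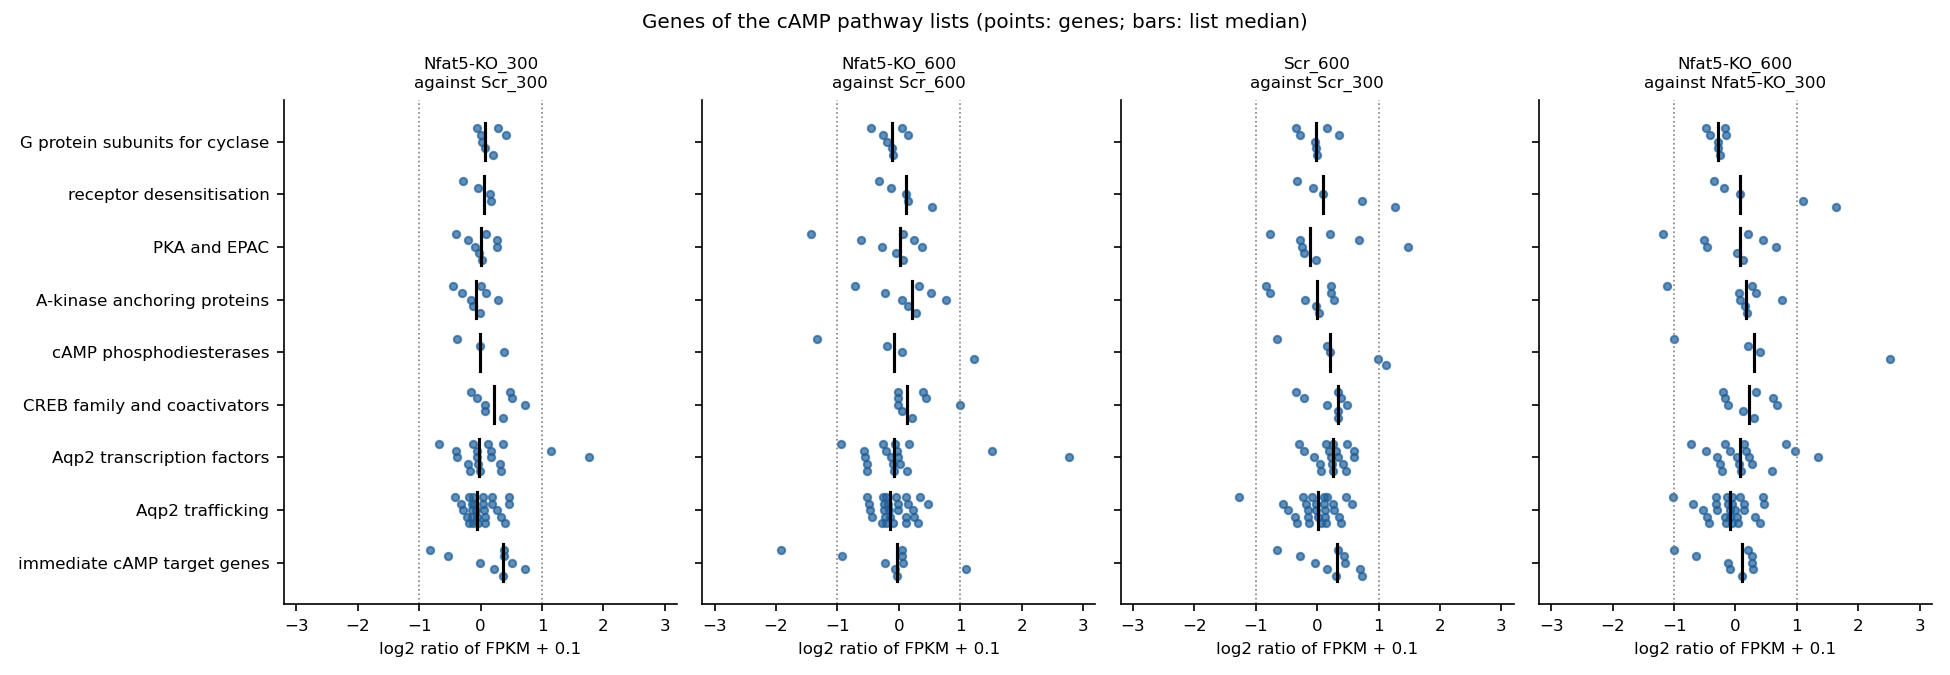
Log2 ratios of FPKM + 0.1 of the genes past the filter in 9 pathway lists, 1 panel per comparison, with each gene as a point, the list median as a bar and 2-fold as dotted lines (linear axis). The points past 2-fold include Gata3 at 1.77 and 2.77 in the comparisons of genotype and Prkar2b at 1.48 for hypertonicity in the Scr groups.

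Genes whose 4 means most resembled a member's were found by Euclidean distance over the 3 log2 ratios to Scr_300 among 11921 genes with at least 1 FPKM. For Aqp1 the nearest were Nupr1, Ccl2 and Igfbp7, at distances of 2.86, 3.07 and 3.29. The distance was not scaled for the size of the ratios, which were large for Aqp1, so it does not compare directions alone. Igfbp7 was 66.5, 391, 9.01 and 47.4 FPKM and Nupr1 8.98, 58.2, 1.47 and 2.73. Both had the directions of Aqp1 in every comparison, with smaller differences between the genotypes. The nearest of Aqp3 was Susd4 (0.0300), of Aqp5 Man2a2 (0.0617), of Adcy6 Gm26617 (0.0682) and of Adcy9 Plcxd2 (0.0810).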

How the data were processed

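The authors removed low-quality reads, mapped paired-end reads to GRCm38/mm10 with HISAT2, counted them per gene with HTSeq and deposited 4 FPKM columns, 1 per group of mpkCCD cells. Of 54839 rows, 2436 held no value. Members and gene lists were chosen with earlier results of these data known. The genes named were the members, the rest of their families, the PKA, EPAC and G protein subunits, and listed genes at least 2-fold different in a comparison, with some chosen from those. Gene lengths are from GENCODE M21.

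Whole reads were recovered after the data were seen. A group mean equals the mean over libraries of reads divided by length and library size, genes with a single read give the library sizes, and the whole numbers that give each mean (relative tolerance 1e-10) were then searched. They were unique for 92.3% of 21472 Scr_300 and 92.0% of 21961 Scr_600 values with up to 20000 reads, and for 90.3% of 12616 Nfat5-KO_300 and 90.9% of 13738 Nfat5-KO_600 values with up to 100 reads. Nearly all the other values had no whole-number solution at all. In Nfat5-KO_300, 11396 values had a solution and 11391 a unique one, and in the Scr groups the 2 counts were equal. Where several sets fitted, those with libraries over 10-fold apart were left out, a rule set after seeing the data that decides Aqp1 in Scr_600. Per-library values in the supplementary files had been seen when the recovery was judged, and entered no script. The steps were tested on data with known answers. Library sizes were 29344029 to 37506799 reads. Intervals are exact at 95% and cover counting error only.

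Comparisons used log2(FPKM + 0.1) over genes with at least 0.5 FPKM in either group, with 2-fold as a call. A single gene got a ratio only where both groups had 0.1 FPKM. As an alternative added after seeing the data, limma 3.58.1 (R 4.3.3, trend, Benjamini-Hochberg adjustment) was fitted to the recovered Scr libraries over 11946 genes, 93.4% of the 12784 with 0.5 FPKM. The study's methods call the replicates biological, the labels name no separate cultures, and the p-values measure the spread between these 4 libraries. Other alternatives were pseudocounts of 1 and 0.01, other filters, a 1.5-fold call, median-of-ratios factors, rescaling to equal sums (TPM), and leaving out each Scr library. Calculations used pandas 2.3.3 and numpy 2.4.6 in Python 3.11.15, with scipy 1.17.1 for intervals and matplotlib 3.10.9 for plots.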

Additional observations from a re-analysis of the deposited data

Results flagged for a closer look

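The spread of FPKM over the libraries was examined in the 7 knockout groups in which all 4 libraries of a gene were recovered, and 3 had a library far from the others (gap over range above Dixon's 95% critical value for 4 samples). They were Aqp2 in Nfat5-KO_300 (0.894, reads of 1, 0, 1 and 1), Aqp4 in Nfat5-KO_300 (1, reads of 0, 0, 2 and 0) and Aqp4 in Nfat5-KO_600 (1, reads of 0, 0, 5 and 0). The chance rate of about 1 in 20 groups holds for continuous values, and counts this low reach the limit through a difference of 1 to 5 reads. A group with reads in only 1 of its 4 libraries reaches 1 whatever their number. The 3 flags therefore cannot be set against that rate.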

How the results depend on the processing

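No called value of a member changed direction under any alternative. Uncalled ratios of Aqp3, Aqp5 and Adcy6 to Scr turned with the Scr library left out. So did the Scr hypertonicity ratios of Aqp3 and Adcy9, and the difference between the 2 hypertonicity ratios of Aqp3, Aqp5 and Adcy9. Rescaling to equal sums turned the small knockout hypertonicity ratios of Aqp3 and Adcy9. Counts of members at least 2-fold different moved as follows. In the comparisons of genotype at 300 and at 600 mosmol/kg, the count of 2 became 1 (Aqp1) with a pseudocount of 1 FPKM and with a mean of at least 1 FPKM. At 600 mosmol/kg it was 1 to 2 over the fits that leave out a Scr library, and at 300 mosmol/kg it was 2 to 3. For hypertonicity in the Scr groups, the count of 1 became 2 without a filter and after rescaling to equal sums (TPM; Aqp2 added), 3 at a 1.5-fold call (Aqp5 and Adcy6 added), and 1 to 2 when 1 library was left out. In the knockout groups rescaling made it 4 (Aqp2 and Adcy6 added). The number of members whose 2 hypertonicity ratios differed by at least 2-fold was 1 (Aqp1), 2 after rescaling (Aqp5 added, at 1.07) and 0 to 2 when 1 Scr library was left out. The median ratio of all genes moved by rescaling to 0.107 in Nfat5-KO_600 against Scr_600 and 0.200 in Nfat5-KO_600 against Nfat5-KO_300, from -0.02 and -0.04. The number of members called by limma was 0 to 1 when 1 Scr library was left out, with 0 genes called in all when it was a Scr_600 library (1890 and 2790 at an unadjusted p under 0.05) and 17 when it was a Scr_300 library, where the lone library is assumed to vary like the other group. No other count test was run. No paired analysis was possible because the Scr groups share no replicate number and the recovered knockout libraries carry none. The planned fit over 4 groups, its interaction term and leaving out each knockout library were not run: the deposited file gives group means only, and values of the supplementary files were not used. Depth limits Avpr2, Aqp2, Aqp4 and Aqp11.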

Other observations

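A few genes outside the members show that the 4 knockout libraries of a group were not alike. Kcnj1, the apical potassium channel gene of principal cells, had 95 and 80 reads in the Scr_600 libraries and 2, 1, 22 and 9 in the Nfat5-KO_600 libraries, and no read in any isotonic library. Slc6a12, the betaine transporter gene, had 0, 0, 31 and 25 reads in the Nfat5-KO_600 libraries against 136 and 321 in Scr_600. These genes were chosen after their values were seen. Aqp2 had its reads in the other libraries of that group (20, 22, 3 and 0), and the recovered libraries could not be assigned to clone N1 or N3.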
